A study of Homo sapiens with 9 samples.

Results

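The 9 genes described here encode the brakes and the first switches of death receptor signaling. They were taken by symbol, as the rows of the deposited count table named BIRC2, BIRC3, XIAP, CFLAR, CASP8, CASP10, FADD, TRADD or RIPK1, and all 9 were found among its 60656 genes. The libraries came from RIVA, a line derived from diffuse large B-cell lymphoma (DLBCL) of the ABC, or activated B-cell-like, subtype. The cells had been infected with plvx-Tetone, a tetracycline-inducible lentiviral vector, that carried no insert (vector) or 1 of 2 mutants of BCL10, the truncation S136X and the missense change R58Q. All 3 groups received doxycycline at 200 ng/mL for 24 h, the empty vector included, and all kept their own BCL10 gene, labelled wild type in the vector cells. Each group had 3 libraries, called biologic replicates in the study, and no group expressed wild-type BCL10 from the vector. The comparisons asked how the induction of either mutant changed RNA levels against the vector, and whether R58Q and S136X differed.

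BCL10 is an adaptor protein that links the B-cell receptor to the NF-kB transcription factors. Tumor necrosis factor (TNF) family ligands open the extrinsic apoptosis route: receptors recruit TRADD or FADD, FADD gathers caspase-8 and caspase-10, and the caspases cut themselves into active form. CFLAR encodes c-FLIP, a caspase-8 relative that joins the same assembly through death effector domains and limits that step. BIRC2 and BIRC3 encode cIAP1 and cIAP2, ubiquitin ligases that decorate RIPK1 at the TNF receptor, and XIAP encodes the direct inhibitor of the executioner caspases.

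Total counts ranged from 28047713 to 33122267 per library, and no replicate pair agreed within sampling noise (chi-square 7.84 to 24.4 per degree of freedom). BCL10 itself had 30.8 ± 6.86 CPM (counts per library size adjusted by TMM, so that libraries compare) in vector, 414.1 ± 71.7 in S136X and 334.8 ± 24.0 in R58Q (mean ± SD, n = 3 in each). The column names carry an earlier date for vector and S136X and a later one for every R58Q library, so date and R58Q cannot be told apart. The 7 B-cell markers summed to between 2441 and 3219 CPM in all libraries, and 4 of 5 T-cell, 3 of 4 NK-cell and 3 of 5 myeloid markers stayed under 10 counts in every library. The 5 T-cell markers, with 1 that reached 367 counts, summed to 1.63 to 3.85 CPM in the vector libraries, 1.16 to 8.58 in those of S136X and 1.38 to 12.3 in those of R58Q, and the groups overlapped. Their part in the changes given here was not tested. Of 5 markers of the activated B-cell-like subtype, 4 reached 10 counts, with sums of 1402 to 1556 CPM in the vector libraries and 1987 to 2300 in the mutant libraries. The 4 epithelial markers summed to 41.4 to 71.3 CPM over all libraries, with overlapping groups. The 4 fibroblast markers summed to 6.14 to 9.25 CPM in the vector libraries, 12.5 to 18.3 in those of S136X and 12.9 to 18.8 in those of R58Q, and their part in the changes given here was not tested. Mitochondrial genes took 6.02% to 8.45% of counts in vector, 6.40% to 7.14% in S136X and 5.12% to 6.28% in R58Q.

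BIRC3 and CFLAR rose in both mutants, and BIRC2 rose in R58Q. XIAP, both initiator caspases and the 3 adaptor genes passed the test in neither comparison with vector. The call rule was a 1.5-fold difference or more together with an adjusted p under 0.05 (edgeR quasi-likelihood test with Benjamini-Hochberg adjustment over all genes tested). By this rule 2 of 9 were called in S136X, both higher, where 3.87% of the 15530 genes tested were called and 2.05% were called higher. In R58Q 3 of 9 were called, all higher, where 7.63% of the 15435 genes tested were called and 4.09% were called higher. Without the fold threshold the same 2 and 3 genes passed, beside 10.1% and 21.0% of all genes tested. The median log2 fold change of the 9 was 0.08 in S136X and 0.14 in R58Q, beside -0.02 and -0.03 over all genes tested. All 9 passed the filter on low counts in every comparison.

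**Figure D1:**
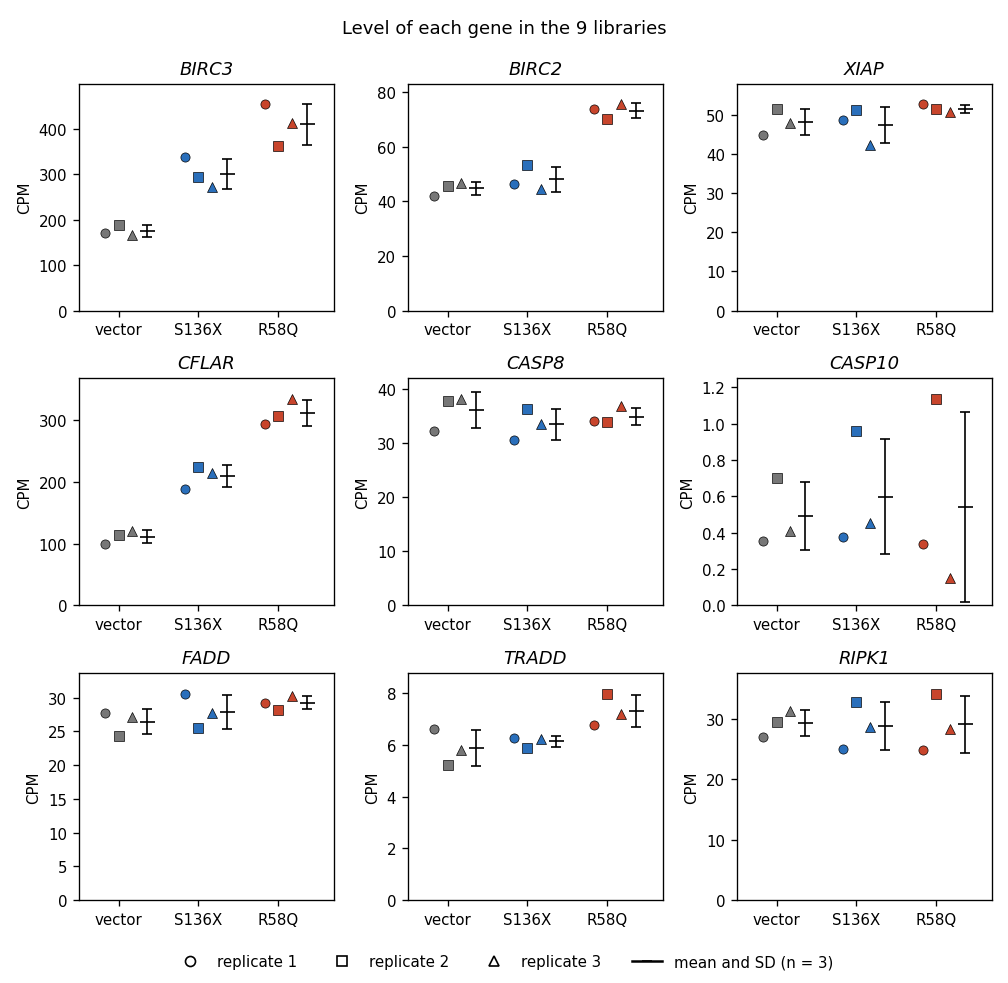
Level of each of the 9 genes in CPM (vertical axes, each from 0) in the 3 vector, 3 S136X and 3 R58Q libraries; symbols mark the replicate number and bars the mean and SD (n = 3). BIRC3 and CFLAR separate all 3 groups, BIRC2 separates R58Q from the others, and CASP8, CASP10, XIAP and RIPK1 overlap throughout.

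BIRC3 (ENSG00000023445.16, GRCh38 chromosome 11, 102317450 to 102339403, plus strand) had the highest level of the 9 genes in every group, in CPM as well as per kilobase of exon. Its promoter window, 250 bases before to 50 after the start in RefSeq GRCh38.p14, is printed beside that of its neighbour BIRC2, because the pair lie side by side and differed in S136X. Capitals mark matches to the 10-base kappaB consensus, the DNA motif that NF-kB dimers bind, searched on both strands.
BIRC3, chr11:102317234-102317533, plus strand: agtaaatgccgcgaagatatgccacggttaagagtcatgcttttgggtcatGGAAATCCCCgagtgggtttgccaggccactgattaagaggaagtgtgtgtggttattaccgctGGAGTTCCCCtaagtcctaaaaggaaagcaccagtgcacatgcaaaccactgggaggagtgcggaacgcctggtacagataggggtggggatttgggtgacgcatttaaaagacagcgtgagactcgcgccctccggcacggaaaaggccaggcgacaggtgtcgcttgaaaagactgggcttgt
BIRC2, chr11:102346964-102347263, plus strand: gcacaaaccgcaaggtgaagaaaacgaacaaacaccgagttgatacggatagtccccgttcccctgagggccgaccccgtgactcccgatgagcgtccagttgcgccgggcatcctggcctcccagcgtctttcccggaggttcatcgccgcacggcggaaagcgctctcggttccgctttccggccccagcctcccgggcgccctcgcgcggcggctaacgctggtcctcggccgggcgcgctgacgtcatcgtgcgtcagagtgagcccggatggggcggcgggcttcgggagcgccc
The BIRC3 window held 2 matches, with first bases at -199 and -135 from the start. Neither of the 2 BIRC2 windows held one, and 11.3% of all 35116 windows of this length did. A match describes letters only, and nothing about binding follows from it or from its absence.

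BIRC3 had 171, 189 and 166 CPM in the vector libraries, 338, 293 and 271 in S136X, and 454, 363 and 413 in R58Q. Every S136X library lay above every vector library, and every R58Q library above every S136X library. The means were 175 ± 12.4, 301 ± 33.9 and 410.0 ± 45.6 (SD, n = 3). BIRC3 thus rose 1.72-fold in S136X (log2 fold change 0.78 ± 0.09, SE, edgeR adjusted p = 0.00184) and 2.33-fold in R58Q (1.22 ± 0.09, edgeR adjusted p = 0.000139). R58Q against S136X differed by 0.44 ± 0.10, which did not pass (edgeR adjusted p = 0.129). With the replicate number as a block the difference was again 0.44, with an edgeR adjusted p of 3.04e-06, still under 1.5-fold. A lncRNA gene, AP000942.5, overlaps BIRC3 and reached at most 17 counts, against at least 5632 for BIRC3.

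BIRC2 (ENSG00000110330.8, chromosome 11, 102347211 to 102378670, plus strand) starts 7.81 kb after BIRC3 ends. Its vector libraries had 42.0, 45.4 and 46.7 CPM, the S136X libraries 46.2, 53.3 and 44.6, and the R58Q libraries 73.9, 70.2 and 75.5. S136X overlapped vector, while all R58Q libraries stood above the other 6. BIRC2 rose 1.63-fold in R58Q (0.71 ± 0.06, edgeR adjusted p = 0.000362), and S136X differed from vector by 0.10 ± 0.08 (edgeR adjusted p = 0.478). The direct comparison of R58Q with S136X gave 0.60 ± 0.08, or 1.51-fold (edgeR adjusted p = 0.0242). BIRC2 was the 1 gene of 9 called in that comparison, where 0.434% of the 15195 genes tested were called and 0.27% were called higher. That call is close to both limits: it did not hold in 4 of 6 fits made without 1 library, with the log2 difference between 0.55 and 0.68 and edgeR adjusted p between 0.0334 and 0.158. It was lost without R58Q replicate 1 (adjusted p = 0.0829), R58Q replicate 3 (0.126), S136X replicate 1 (0.0873) or S136X replicate 3 (0.158, all edgeR).

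XIAP (ENSG00000101966.13, chromosome X, 123859724 to 123913976, plus strand), which blocks caspases by direct binding, had 44.9, 51.5 and 48.0 CPM in vector. The S136X libraries had 48.6, 51.2 and 42.2 CPM, and the R58Q libraries 52.7, 51.4 and 50.7. The groups overlapped, with log2 differences from vector of -0.02 ± 0.09 for S136X and 0.10 ± 0.07 for R58Q (edgeR adjusted p = 0.893 and 0.329). Within each library the ratio of BIRC3 to XIAP reads per kilobase of annotated exon was 4.38 ± 0.222 in vector, beside 7.65 ± 0.735 in S136X and 9.54 ± 0.955 in R58Q. Neither mutant overlapped vector (exact permutation test, two-sided, p = 0.1, the smallest that 3 libraries against 3 allow).

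CFLAR (ENSG00000003402.20, chromosome 2, 201116154 to 201176687, plus strand) had the largest change of the 9 genes in both mutants. Of its 4 RefSeq promoter windows, 1 held a kappaB match, with its first base at -97, and it is shown for that match, in capitals.
CFLAR, chr2:201118466-201118765, plus strand: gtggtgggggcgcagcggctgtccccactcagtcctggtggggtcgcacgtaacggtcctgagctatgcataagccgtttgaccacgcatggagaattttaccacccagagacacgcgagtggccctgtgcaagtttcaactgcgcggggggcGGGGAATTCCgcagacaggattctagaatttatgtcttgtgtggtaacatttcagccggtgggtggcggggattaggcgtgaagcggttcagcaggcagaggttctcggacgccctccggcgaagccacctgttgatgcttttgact
No window of XIAP, CASP8, FADD or RIPK1 held a match, and CASP10 and TRADD had no entry among the windows used. A second motif, TGANTCA, the site of AP-1 factors and its own reverse complement, was present in 1 other CFLAR window, 2 of 3 CASP8 windows and the FADD window, and in 7.71% of all windows.

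CFLAR had 99.2, 114 and 120 CPM in the vector libraries, 189, 225 and 215 in S136X, and 293, 306 and 334 in R58Q. The 3 groups did not overlap, and replicate 1 was the lowest library of each. CFLAR rose 1.89-fold in S136X (0.92 ± 0.09, edgeR adjusted p = 0.00083) and 2.80-fold in R58Q (1.49 ± 0.09, edgeR adjusted p = 4.56e-05). R58Q exceeded S136X by 0.56 ± 0.09, with an edgeR adjusted p of 0.0411 but under 1.5-fold (without the fold threshold, 2 of 9 genes and 0.533% of genes tested passed). Leaving out 1 library raised that adjusted p to between 0.07 and 0.202 in all 6 edgeR fits, while the replicate block gave 0.56 with an edgeR adjusted p of 4.16e-08. The fold covers all isoforms together, since the table has 1 row per gene, so long and short c-FLIP cannot be told apart.

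**Figure D2:**
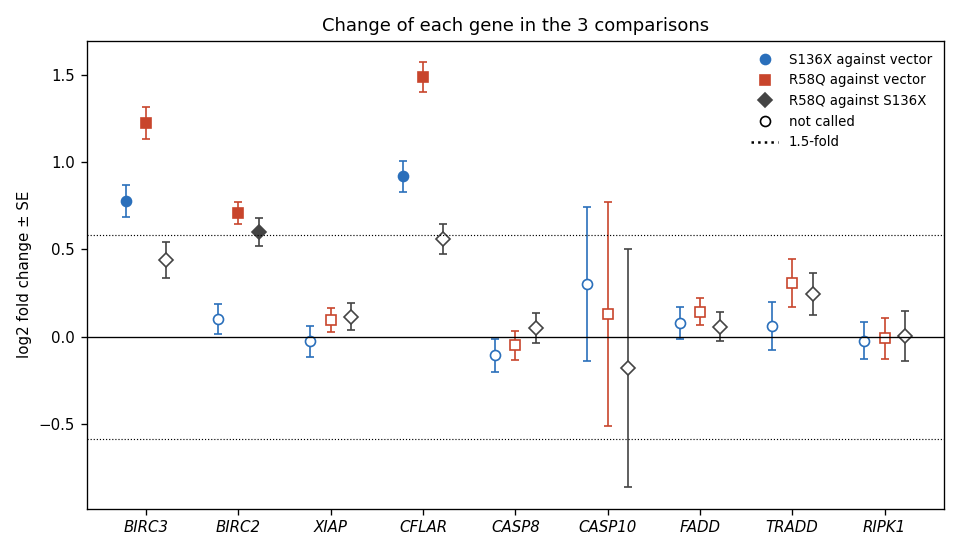
Log2 fold change (vertical axis, with SE) of each of the 9 genes for S136X against vector, R58Q against vector and R58Q against S136X; filled symbols were called and dotted lines mark 1.5-fold. Filled symbols are seen for BIRC3 and CFLAR in both mutants (0.78 and 0.92 in S136X, 1.22 and 1.49 in R58Q) and for BIRC2 in both R58Q comparisons.

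CASP10 and CASP8 follow CFLAR on the same strand, starting 6.21 kb after CFLAR and 4.04 kb after CASP10. CASP8 (ENSG00000064012.22, chromosome 2, 201233443 to 201287711), the main initiator caspase of death receptors, had 32.2, 37.8 and 38.1 CPM in vector, 30.6, 36.3 and 33.5 with S136X, and 34.0, 33.9 and 36.7 with R58Q. The groups overlapped, with differences from vector of -0.11 ± 0.09 and -0.05 ± 0.08 (edgeR adjusted p = 0.522 and 0.712). CASP10 (ENSG00000003400.15, chromosome 2, 201182898 to 201229406), a second initiator, was close to the limit of detection, with 12, 23 and 14 counts in vector, 11, 31 and 13 in S136X, and 10, 34 and 5 in R58Q. Replicate 2 was the highest library in all 3 groups, and the spread within groups exceeded any difference between them (SE 0.44 and 0.64 on the log2 scale). A change in CASP10 was not detectable at this depth.

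Per kilobase of annotated exon, CFLAR and CASP8 stood level in the vector cells and apart in the mutants. The ratio of CFLAR to CASP8 was 0.991, 0.967 and 1.01 in the vector libraries, 1.98, 1.99 and 2.06 in S136X, and 2.77, 2.91 and 2.92 in R58Q. Its spread within a group (SD 0.0208, 0.0461 and 0.0839) was small beside the steps between groups. Relative to vector the ratio was 2.03-fold in S136X and 2.90-fold in R58Q, and R58Q exceeded S136X 1.43-fold, without overlap in any pair of groups (exact permutation test, two-sided, p = 0.1 for each of these 3, the smallest possible). The absolute ratio depends on the annotated exon lengths, 22529 bases for CFLAR and 7243 for CASP8, while the folds do not. The ratio of BIRC3 to BIRC2 was 2.46, 2.51 and 2.14 in vector, 4.41, 3.32 and 3.67 in S136X, and 3.71, 3.12 and 3.30 in R58Q. Both mutants stood above vector, and they overlapped each other (exact permutation test, two-sided, p = 0.4). With 12 tests of ratios made over 4 pairs of genes and 3 comparisons, none could pass an adjustment.

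**Figure D3:**
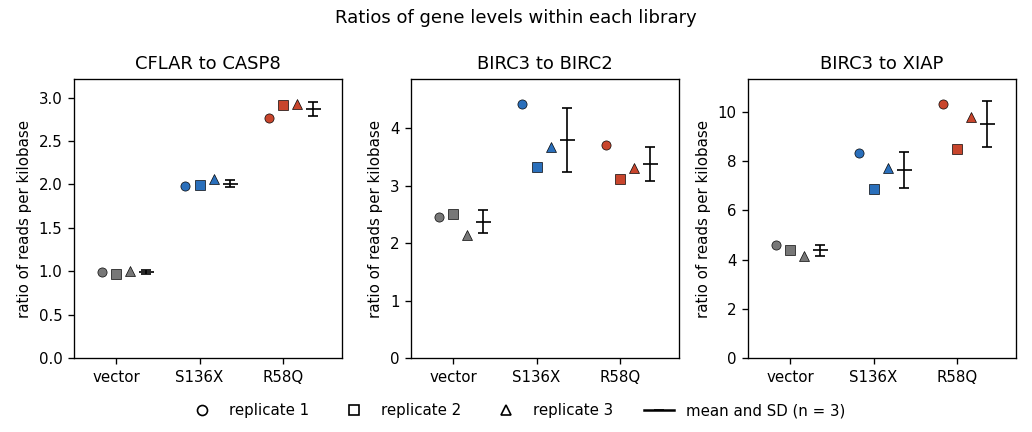
Ratio of reads per kilobase of annotated exon within each library (vertical axes, from 0) for CFLAR to CASP8, BIRC3 to BIRC2 and BIRC3 to XIAP; symbols mark the replicate number and bars the mean and SD (n = 3). The CFLAR to CASP8 ratio is near 0.989 in vector, 2.01 in S136X and 2.87 in R58Q, with no overlap.

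None of the adaptor genes passed the test against vector. FADD (ENSG00000168040.5, chromosome 11, 70203296 to 70207390, plus strand), which carries the death effector domain that gathers the caspases, had 27.8, 24.3 and 27.2 CPM in vector, 30.6, 25.5 and 27.7 with S136X, and 29.3, 28.2 and 30.2 with R58Q. The R58Q libraries stood just above the vector libraries, by 0.14 ± 0.08, which did not pass (edgeR adjusted p = 0.214). S136X differed from vector by 0.08 ± 0.09 (edgeR adjusted p = 0.631). Antisense gene AP000879.1 shares 52.6% of the 31-base words of the longest FADD transcript and reached at most 18 counts, and how the counting treated strand is not given in the sources used here.

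TRADD (ENSG00000102871.16, chromosome 16, 67154185 to 67159909, minus strand), the adaptor that TNF receptor 1 binds first, had 6.61, 5.22 and 5.82 CPM in vector, 6.28, 5.89 and 6.24 with S136X, and 6.77, 7.98 and 7.18 with R58Q. All R58Q libraries were above all others, by 0.31 ± 0.14 against vector and 0.24 ± 0.12 against S136X, and neither difference passed (edgeR adjusted p = 0.142 and 0.526). RIPK1 (ENSG00000137275.14, chromosome 6, 3063991 to 3115187, plus strand), the kinase whose ubiquitin chains steer TNF signaling toward survival or death, had 27.0, 29.4 and 31.3 CPM in vector, 25.0, 32.8 and 28.6 with S136X, and 24.8, 34.1 and 28.4 with R58Q. The groups overlapped around nearly equal means, and the log2 differences from vector were -0.02 ± 0.11 for S136X and -0.01 ± 0.12 for R58Q (edgeR adjusted p = 0.923 and 0.961).

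Counting libraries alone, 2 of 9 genes had every S136X library above every vector library (background 16.0% of genes tested), and 5 of 9 had every R58Q library above (BIRC3, BIRC2, CFLAR, FADD and TRADD, background 21.1%). Between the mutants, BIRC3, BIRC2, CFLAR and TRADD had every R58Q library above every S136X library (4 of 9, background 9.46%). No gene of the 9 had all mutant libraries below in any of the 3 comparisons. The comparisons with vector share the 3 vector libraries.

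On the scale of CPM per kilobase of annotated exon (GENCODE 29), BIRC3 led in every group, with libraries from 22.0 to 25.2 in vector, 36.1 to 44.9 in S136X and 48.3 to 60.4 in R58Q. FADD came next in vector (14.4) and S136X (15.2), and in R58Q it overlapped BIRC2, at 15.9 and 16.1. CFLAR was seventh of the 9 in vector at 4.92, overlapping CASP8 at 4.97, which in turn overlapped XIAP at 5.33. In S136X CFLAR reached 9.30 and overlapped BIRC2 at 10.6. In R58Q it reached 13.8, below FADD and BIRC2 and above RIPK1 at 6.88. TRADD at 2.29 and CASP10 at 0.0645 in vector were the lowest, as they were in both mutants. The exon length counts every annotated exon, so a gene with long exons that are seldom used is placed too low.

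The neighbours of both clusters were tested in the same fits. Of 2 other genes tested within 250 kb of the BIRC3 and BIRC2 pair, neither was called in either mutant, with log2 fold changes from 0.02 to 0.11 in S136X and from -0.53 to 0.17 in R58Q. Of 10 others around CFLAR, CASP10 and CASP8, 1 was called in each mutant, the pseudogene IMPDH1P10, and the median of the 10 was 0.01 in S136X and -0.04 in R58Q. IMPDH1P10 lies inside CFLAR on the opposite strand, with 6, 9 and 4 counts in vector, 13, 18 and 18 in S136X, and 18, 17 and 22 in R58Q, and its reads cannot be told apart from those of CFLAR without strand. Its S136X call (1.503, edgeR adjusted p = 0.0446) was lost in all 6 fits without 1 library, and its R58Q call (1.68, edgeR adjusted p = 0.0145) in 2 of 6, those without R58Q replicate 3 or vector replicate 3. DESeq2 called it in neither mutant.

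**Figure D4:**
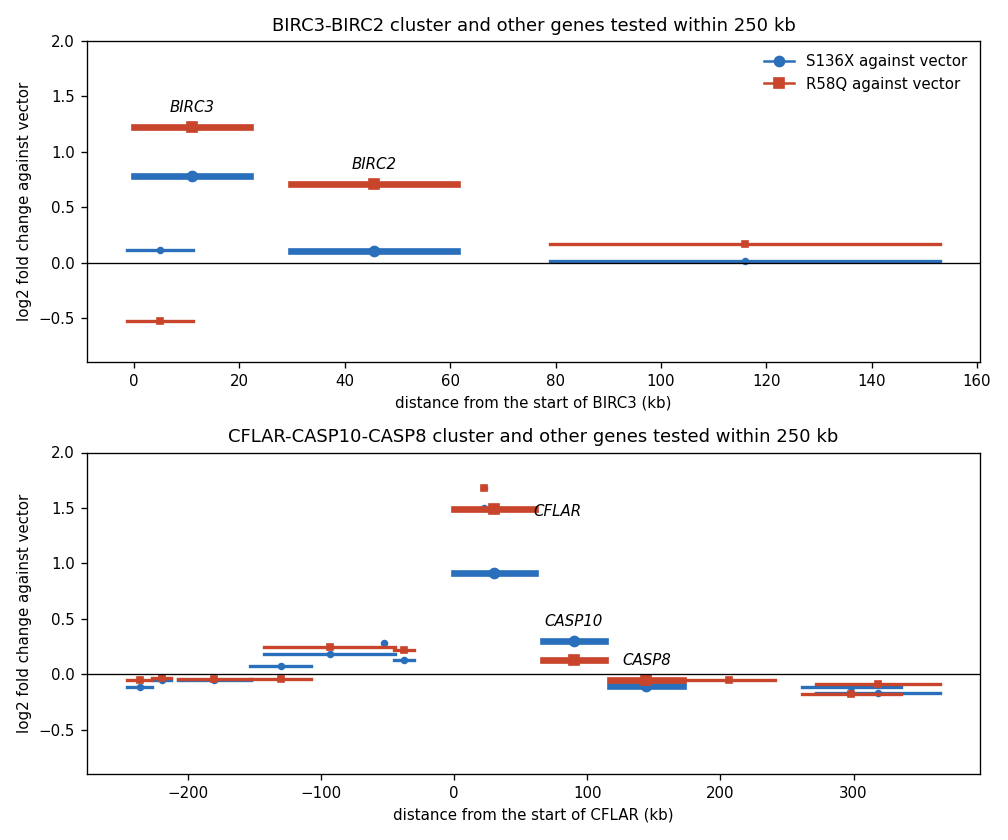
Log2 fold change against vector (vertical axis) of the genes tested within 250 kb of each cluster, drawn at their distance in kb from the start of BIRC3 (top) or CFLAR (bottom); bars span each gene, thick for the 9 genes, with circles for S136X and squares for R58Q. BIRC3 (0.78 and 1.22) and CFLAR (0.92 and 1.49) stand above their neighbours, apart from the small pseudogene inside CFLAR.

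The genes closest to BIRC3 across the 9 libraries, by the root mean square difference of log2 CPM after centring each gene on its vector mean, were LAT2, a membrane adaptor of B-cell and Fc receptors (0.0763), FMNL3, a formin (0.0883), and ZC3HAV1, an antiviral zinc finger protein (0.106), among 12254 protein-coding genes. Their log2 fold changes were 0.88 and 1.15 for LAT2, 0.80 and 1.17 for FMNL3, and 0.73 and 1.07 for ZC3HAV1, in S136X and R58Q in that order. The genes closest to CFLAR were NFKB2 (0.106), TNFAIP3 (0.13) and PTPRE, a receptor-type tyrosine phosphatase (0.135). NFKB2, which encodes the p100 precursor of NF-kB, changed by 0.87 in S136X and 1.40 in R58Q, beside 0.92 and 1.49 for CFLAR. PTPRE changed by 0.91 and 1.46. These likenesses were sought among the same libraries and are descriptions only. BIRC3 and CFLAR differed from each other by 0.254 on this measure.

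Of 61 other genes of the extrinsic apoptosis pathway, 55 were tested. In S136X 9 were called higher and 0 lower, and in R58Q 12 higher and 0 lower, with medians of 0.10 and 0.18. Over all genes tested 2.05% were called higher in S136X and 4.09% in R58Q (3.87% and 7.63% in either direction), with medians of -0.02 and -0.03. With the replicate block the counts were 11 in S136X and 14 in R58Q, of which NAIP in R58Q was lower. The block also raised the share called over all genes tested, to 6.53% in S136X and 10.7% in R58Q, in either direction. The 6 genes not tested were BIRC7, BIRC8, CD40LG, FASLG, TNFRSF10C and ZBP1, which had at most 4 counts in any library.

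Among the receptors and ligands, 5 of 13 were called in each mutant: CD40, FAS, LTA, TNF and TNFSF15. LTA, which encodes lymphotoxin alpha, rose by 2.61 in S136X and 4.30 in R58Q on the log2 scale, and TNF by 2.07 and 3.12. TNFSF15, a TNF relative also called TL1A, had 11, 11 and 11 counts in vector, 40, 60 and 63 in S136X and 50, 49 and 133 in R58Q, a rise of 2.45 ± 0.28 and 2.90 ± 0.43. CD40, a receptor that engages TRAF proteins and not FADD, rose from 146 ± 8.46 CPM in vector to 284 ± 7.72 in S136X and 500.0 ± 44.5 in R58Q. FAS, the receptor of FAS ligand, was low, at 1.54, 1.68 and 1.38 CPM in vector, 2.53, 3.69 and 2.98 with S136X, and 4.11, 6.21 and 4.65 with R58Q. Its log2 fold change was 0.998 ± 0.21 in S136X (edgeR adjusted p = 0.0198) and 1.70 ± 0.20 in R58Q (edgeR adjusted p = 0.00138). The S136X call of FAS was lost in 4 of 6 fits without 1 library (S136X replicate 2 or 3, or vector replicate 2 or 3), with values from 0.86 to 1.12. R58Q against S136X differed by 0.69 for FAS, which passed with the replicate block (edgeR adjusted p = 0.000748) and not without it (0.264). FASLG had 0 counts in all 9 libraries, which allows up to 3 counts in each by counting error alone. TNFRSF1A, which encodes TNF receptor 1, had 9.90 ± 2.60 CPM in vector, 9.85 ± 1.87 with S136X and 8.91 ± 0.505 with R58Q, and was not called. TNFRSF1B, which encodes TNF receptor 2, differed by 0.92 ± 0.27 for S136X and 0.74 ± 0.27 for R58Q (edgeR adjusted p = 0.0683 and 0.0858), and with the replicate block both were called (0.88 and 0.72, edgeR adjusted p = 0.0203 and 0.0324).

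Of 16 partners of the TNF receptor complex, 3 were called in S136X (OTULIN, TNFAIP3 and TRAF1) and 4 in R58Q (the same 3 and TAB2). TRAF1, which joins TRAF2 in binding the cIAPs, rose from 67.4 ± 8.51 CPM to 161 ± 16.4 in S136X and 411 ± 46.7 in R58Q. TNFAIP3, the ubiquitin-editing enzyme A20, rose by 1.03 ± 0.08 and 1.36 ± 0.11. OTULIN, which removes linear ubiquitin chains, rose by 0.59 ± 0.06 and 0.77 ± 0.07, and its S136X call, near 1.5-fold, was lost without S136X replicate 2 or vector replicate 3, and under total-count and upper-quartile scaling. TAB2, a subunit that couples ubiquitin chains to the kinase TAK1, rose by 0.61 ± 0.08 in R58Q, near 1.5-fold too, and its call was lost without R58Q replicate 3 and under the same 2 scalings. TRAF2, which recruits the cIAPs, differed by 0.32 and 0.38, under 1.5-fold (edgeR adjusted p = 0.0368 and 0.00503).

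Of the caspase and apoptosome genes, BID was called in both mutants. BID, the protein that caspase-8 cleaves to engage mitochondria, rose from 75.8 ± 1.65 CPM to 129 ± 7.73 in S136X and 130.0 ± 10.4 in R58Q.

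Among 4 antagonists of the IAPs, XAF1, an interferon-inducible partner of XIAP, was called in R58Q, although its libraries overlapped those of vector. It had 0.208, 1.16 and 2.85 CPM in vector, 0.751, 26.9 and 11.01 with S136X, and 2.46, 44.0 and 27.5 with R58Q. Replicate 1 was the lowest in each group, and R58Q replicate 1 lay under vector replicate 3. The log2 fold change in R58Q was 4.12 ± 1.01 (edgeR adjusted p = 0.0241), and the call was lost without R58Q replicate 2 or 3 or vector replicate 1 or 2. S136X gave 3.19 ± 1.06 (edgeR adjusted p = 0.0936), and with the replicate block 3.04 (edgeR adjusted p = 0.000816), which was called. Within replicate numbers R58Q also exceeded S136X, by 1.0 (edgeR adjusted p = 1.67e-06), where the fit without the block gave 0.92 (0.861). DIABLO and HTRA2, which encode mitochondrial proteins that displace IAPs from caspases, had log2 fold changes between 0.02 and 0.19 in both mutants and were not called.

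Of 3 other genes with BIR domains, the fold that IAPs use to bind caspases, none was called in either mutant without the block: BIRC5 (survivin) differed by -0.08 and 0.02, BIRC6 by 0.02 and 0.06, and NAIP by -0.93 and -0.79 (edgeR adjusted p = 0.098 and 0.105). NAIP had 25, 49 and 39 counts in vector against 17 to 23 in the mutant libraries. With the replicate block NAIP was called lower in R58Q (-0.78, edgeR adjusted p = 0.0418) and not in S136X (-0.91, edgeR adjusted p = 0.0514), and without vector replicate 1 it was called lower in both. None of 4 necroptosis genes and none of 5 other genes tied to death effector domains was called in either mutant. Between the mutants, 4 of the 55 genes were called, all higher in R58Q: LTA, TNF, CD40 and TRAF1 (0.434% of all genes tested were called and 0.27% called higher). The replicate block gave 6, with FAS and XAF1 added, in a fit that called 2.94% of all genes tested.

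**Figure D5:**
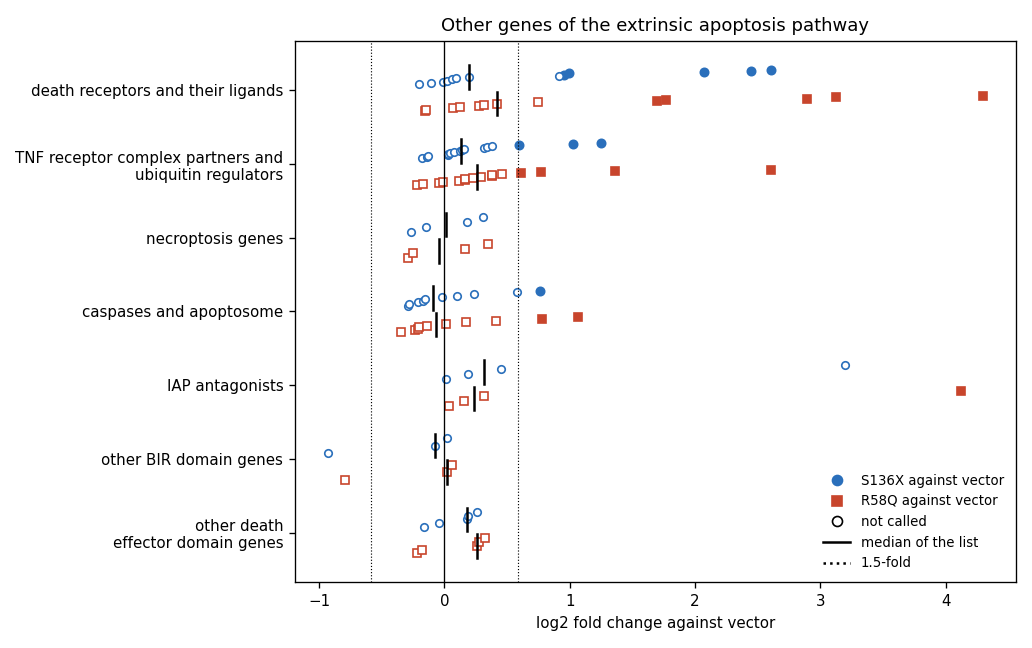
Log2 fold change against vector (horizontal axis) of the 55 other extrinsic apoptosis genes tested, in 7 lists, circles for S136X and squares for R58Q; filled symbols were called, bars mark the median of a list and dotted lines 1.5-fold. Calls lie to the right in the receptor and ligand list (5 and 5 of 13) and in the receptor complex list (3 and 4 of 16), with none to the left.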

How the data were processed

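Polyadenylated RNA of RIVA cells was made into libraries with the NuGEN Universal Plus mRNA-Seq kit and sequenced across 2 runs, whose reads were combined. The authors deposited read counts per gene for 9 libraries, on hg38, with normalized values beside them that were not used here. Their processing notes name cutadapt, STAR and Picard, and versions, counting program and strand setting are not given in the sources used here. The labels give doxycycline both per mL and per uL, and the protocol's 200 ng/mL was used.

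Libraries were grouped by their titles. Each comparison used the 6 libraries of its groups in R 4.3.3 with edgeR 4.0.16: filterByExpr (minimum count 10, minimum total 15), TMM factors, the quasi-likelihood F test and Benjamini-Hochberg adjustment over all genes tested. A standard error is |log2 fold change| over the square root of the F statistic. The fit was tested on simulated data. Alternatives used DESeq2 1.42.0, limma 3.58.1 (voom), other scalings and filters, a replicate block, and leaving out each library. Same-numbered libraries deviated together from their group means (9 of 9 correlations over 0.1, from 0.143 to 0.626, median 0.425). The 18 pairs with different numbers gave -0.459 to 0.169 (median -0.251), which overlaps that range. The block was treated as a pairing found in the data. CPM uses TMM factors over all 9 libraries. Of the gene identifiers, 96.3% are in GENCODE 29. Promoter windows are from RefSeq. Members and gene lists were chosen with earlier results of these data known. Besides the 9 members, the text names each listed gene called in a comparison with vector, the 3 genes most like BIRC3 and CFLAR, and others for their role after their values were seen. Some genes of the pathway list are counted but not reported by name here.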

Additional observations from a re-analysis of the deposited data

Results flagged for a closer look

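R58Q and S136X differed from each other, by the direct edgeR test (adjusted p under 0.05), in 2 of the 9 genes. Over all genes tested 0.533% passed in this way. BIRC2 was higher in R58Q by 0.60 on the log2 scale and CFLAR by 0.56, the latter under 1.5-fold. Without 1 library, the edgeR adjusted p stayed under 0.05 in 2 of 6 fits for BIRC2 and 0 of 6 for CFLAR. In both genes all 3 R58Q libraries exceeded all 3 S136X libraries. Of the other pathway genes, LTA was higher in R58Q by 1.68, TNF by 1.05, CD40 by 0.81 and TRAF1 by 1.35. Without 1 library, TNF was called in 3 of 6 fits, and LTA, CD40 and TRAF1 in 5 of 6 each. NFKB2, the gene most like CFLAR across the libraries, was higher by 0.52, also under 1.5-fold. All R58Q columns carry the later date, so date and R58Q cannot be told apart in any of these differences.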

How the results depend on the processing

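BIRC3 and CFLAR were called in all 15 fits of both comparisons with vector, with log2 fold changes of 0.69 to 0.86 and 0.86 to 0.99 in S136X, and 1.16 to 1.31 and 1.42 to 1.55 in R58Q. BIRC2 was called in all 15 fits of R58Q against vector (0.65 to 0.74). The count called in R58Q against S136X, 1 of 9, ranged from 0 to 1 without 1 library. It was 0 under upper-quartile normalization (BIRC2 0.58), 0 at an adjusted p under 0.01, and 2 with no fold threshold. Of the 55 pathway genes, the counts without a fold threshold were 15 in S136X and 22 in R58Q, in place of 9 and 12. Over all genes tested 10.1% and 21.0% passed in this way. Among the pathway genes that passed, a caspase gene was lower in both mutants, by less than 1.5-fold, and the rest were higher. In R58Q against S136X the 4 calls ranged from 0 to 4 without 1 library, with 0 without S136X replicate 3.

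The replicate block changed no call of the 9 genes against vector. Over all genes it gave 1014 calls in S136X, 1646 in R58Q and 446 between the mutants, in place of 601, 1178 and 66. Other counts over all genes that moved by more than 1.5 times in S136X were 934 with no filter, 1574 with no fold threshold, 262 at an adjusted p under 0.01, 279 without vector replicate 2 and 349 without S136X replicate 3. In R58Q they were 3243 with no fold threshold, 596 at an adjusted p under 0.01, 778 without R58Q replicate 3 and 719 without vector replicate 2. Between the mutants the count was 146 with DESeq2, 114 in a fit of all 9 libraries, 165 with no filter, 15 at an adjusted p under 0.01, and 5 to 63 in fits without 1 library. CASP10 counts limit that gene, and its sign turned without replicate 2 of either mutant (-0.22 in S136X, -1.003 in R58Q). In R58Q against vector the sign of CASP10 also turned without vector replicate 1 (-0.041) and with limma-voom (-0.264).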
